A study of Mus musculus with 10 samples.

Results

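The genes described here are 10 genes of the myostatin, IGF1 and atrophy pathway of striated muscle: Mstn, Gdf11, Acvr2b, Fst, Fstl3, Fbxo32, Foxo1, Foxo3, Igf1 and Igf1r. They were chosen by gene symbol, and all 10 were found among the 23337 genes of the count tables. The libraries come from a study of E0, a regulatory element of the titin gene Ttn that was removed from the mouse genome by CRISPR/Cas9. Poly(A) RNA was sequenced in bulk from the left ventricle (LV) and skeletal muscle (SkM) of 5 mice, which gave 10 libraries of 1 mouse and 1 tissue each. Of the mice, 2 were WT and 3 were E0del/+, which are heterozygous for the deletion and keep an intact E0 on the other allele. All were aged 17 weeks and were hybrids of C57BL/6 and 129SvEv, bred from C57BL/6 E0del/+ and 129SvEv WT parents. E0del is 1 of 3 deletion lines that the study made. Both sexes were used, the labels give no sex for single mice, and the skeletal muscle that was taken is not given in the sources used here. The libraries held from 11010021 to 17484873 counts (median 14050602.5).

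Myostatin, the product of Mstn, is a secreted ligand of the TGF-β superfamily that limits the growth of skeletal muscle; like its close relative GDF11 it binds activin type II receptors, and extracellular proteins such as follistatin bind the ligands and keep them from the receptor. IGF1 acts through its own receptor and the kinase AKT, which keeps FoxO transcription factors out of the nucleus. Active FoxO proteins turn on genes of muscle wasting, among them the ubiquitin ligase atrogin-1, which is encoded by Fbxo32.

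Levels are given as normalized CPM, raw counts as CPM over library sizes adjusted by TMM. Markers of the labelled tissues were present. The 7 ventricle genes, led by Myh6, summed to between 49992 and 71503 normalized CPM in the 5 LVs and to at most 559 in SkM. The 8 genes of fast skeletal muscle, of which Myh4 was the most abundant, summed to between 178424 and 234038 normalized CPM in SkM and to between 117 and 145 in 4 of the LVs. The WT LV replicate 2 library stood apart, with 33779 normalized CPM of these 8 genes, none of which was at 0 counts in any LV. Its 3 satellite cell genes summed to 6.69 normalized CPM, against at most 0.0605 in the other LVs, where Pax7 and Myf5 were at 0, and its 4 adipocyte genes, led by Cfd, summed to 230 against at most 19.1. E0del/+ LV replicate 2 had the largest TMM factor of the LVs, 1.40 against 1.16 to 1.27, and the lowest level of the ventricle gene Ryr2, 1446 normalized CPM against 2150 to 3080. WT LV replicate 2 is treated apart below: levels in LV are given with it apart, and differences between genotypes in LV with and without it. In the WT SkM replicate 1 library, Xist had 5514 counts, and the Y-linked genes Ddx3y, Eif2s3y, Kdm5d and Uty had 173, 67, 27 and 33 counts. The other libraries with 4180 or more counts of Xist had at most 15 counts of any of these 4 genes, and the LV of the same mouse had at most 5. The mice WT replicate 2 and E0del/+ replicate 3 had between 6 and 56 counts of Xist in their libraries and at least 215 of each Y-linked gene. Why WT SkM replicate 1 holds both kinds of counts was not tested and is not given by the labels. It is 1 of only 2 WT SkM libraries. Fits with Xist as a block and with each library or mouse left out were the only checks made on these counts.

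Mstn (chr1:53061663-53068079 of mm10, plus strand, 3 exons) separated the tissues by the widest margin of the 10 genes. In LV it had 0.363 normalized CPM in WT replicate 1 and 0.264, 0.647 and 0.601 in E0del/+ replicates 1 to 3, which are 6, 5, 10 and 8 raw counts. In SkM it had 167 and 295 normalized CPM in WT replicates 1 and 2 and 192, 225 and 245 in E0del/+ replicates 1 to 3. Every SkM library lay far above every LV library, and the genotypes were mixed within each range. WT LV replicate 2 was at 37.4 normalized CPM, between the tissues. Within mice, SkM exceeded LV by between 8.44 and 9.50 on the log2 scale in the 4 other mice, and by 2.98 in WT replicate 2. The fitted difference over the 4 mice was 8.84 (SE 0.20, adjusted p = 2.48e-07), a 459-fold higher level in SkM with a range of 350 to 602 at 2 SE. With all 5 mice, WT LV replicate 2 included, it was 7.42 (SE 1.05, adjusted p = 0.000548), or 171-fold. Since the 4 LVs hold few counts of Mstn, the size of this fold rests on them: the exact 95% Poisson intervals of the lowest and highest of these LVs were 0.0858 to 0.617 and 0.310 to 1.19 normalized CPM, and they cover counting error only. In bulk tissue, fewer cells of a type and less RNA per cell cannot be told apart. In SkM against LV as a whole, 29.8% of the 13375 genes tested were higher and 31.5% lower at an adjusted p under 0.05. Of the 10 genes here 6 were higher, 3 were lower and Foxo1 was neither, and the low-count filter was passed by Mstn and Fst through SkM and by Fstl3 through LV.

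Gdf11 (chr10:128884546-128891718, minus strand, 3 exons), the relative of myostatin that acts in axial patterning, was a low-count gene in both tissues. It had between 0.582 and 1.17 normalized CPM in the 4 LVs, 2.57 in WT LV replicate 2, and between 1.85 and 4.60 in SkM. The SkM range lay above that of the 4 LVs. SkM exceeded LV by 1.61 (log2, SE 0.43, adjusted p = 0.0131), with a higher value in SkM in 4 of 4 mice. The difference was 1.26 without E0del/+ replicate 1 (adjusted p = 0.0642) and 1.43 without WT replicate 1 (adjusted p = 0.0595). It thus passed the threshold only with both of these mice. Per kb of exon, Mstn stood below Gdf11 in the 4 LVs, at 0.307 to 0.386 times its level, and above it in SkM, at 35.9 to 89.2 times.

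The 250 bases before the RefSeq start sites of this pair of related ligands are shown (RefSeq, GRCm38.p6). Of the pair, Mstn differed widely between tissues and Gdf11 much less. An entry was found for 8 of the 10 genes, and Fst and Fbxo32 had none. The Mstn window is chr1:53061390-53061639 on the plus strand and the Gdf11 window chr10:128891719-128891968 on the minus strand, both written 5′ to 3′. Capitals mark the motifs that were searched for on both strands: the E-box CANNTG, the TATA box TATAAA and the CCAAT box, none of which overlap here, and the FoxO motif GTAAACA, which is in neither window.
Mstn: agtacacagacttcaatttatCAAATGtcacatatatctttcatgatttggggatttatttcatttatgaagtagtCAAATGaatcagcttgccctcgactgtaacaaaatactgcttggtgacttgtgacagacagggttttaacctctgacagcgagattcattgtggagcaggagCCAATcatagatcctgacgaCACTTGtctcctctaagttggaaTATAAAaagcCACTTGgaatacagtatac
Gdf11: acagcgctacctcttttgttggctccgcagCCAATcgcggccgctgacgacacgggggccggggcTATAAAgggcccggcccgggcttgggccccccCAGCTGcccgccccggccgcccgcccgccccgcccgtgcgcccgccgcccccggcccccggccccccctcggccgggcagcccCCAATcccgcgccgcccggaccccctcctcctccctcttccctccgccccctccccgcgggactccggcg

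The windows differ in base composition, with a GC content of 38.4% for Mstn and 81.2% for Gdf11, against a median of 52.4% over 32851 promoters. These lie at percentiles 9.05 and 99.1. The Mstn window has 4 E-boxes, which start 229, 174, 52 and 19 bases before the start site, and a TATAAA 29 bases before it. Gdf11 has 1 E-box, 153 bases before its start, and a TATAAA 185 bases before it. An E-box is in 66.2% of all promoter windows of this length, 4 or more of them in 3.84%, TATAAA in 12.4%, CCAAT in 33.8% and GTAAACA in 3.17%. A match is a description of the letters only.

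**Figure D1:**
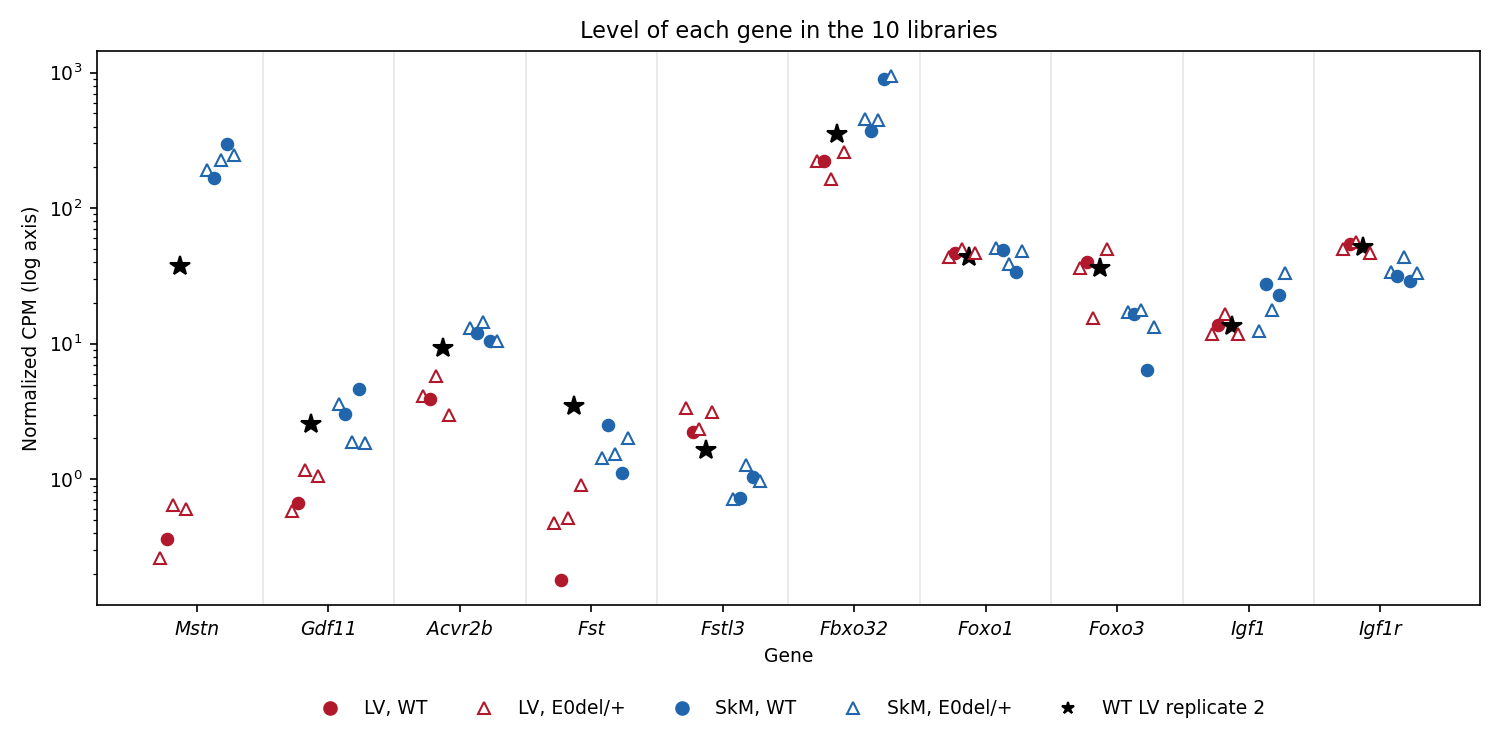
Normalized CPM (log axis) of the 10 genes in the 10 libraries. LV is red and SkM blue, filled circles are WT and open triangles E0del/+, and the black star is WT LV replicate 2. For Mstn the SkM libraries lie between 167 and 295 and the 4 other LVs between 0.264 and 0.647.

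Acvr2b (chr9:119402501-119433506, plus strand, 10 exons), which encodes the activin receptor type IIB that binds myostatin and GDF11, was higher in SkM. In LV it had 3.93 normalized CPM in WT replicate 1 and 4.12, 5.83 and 3.00 in E0del/+ replicates 1 to 3. In SkM it had 12.0 and 10.5 in WT replicates 1 and 2 and 13.1, 14.5 and 10.4 in E0del/+ replicates 1 to 3. The SkM libraries all lay above these LVs, while WT LV replicate 2, at 9.25, came close to the lowest SkM library. The difference was 1.63 (log2, SE 0.16, adjusted p = 9.66e-05), and single mice gave between 1.32 and 1.79. WT replicate 2 gave 0.18.

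The RNAs of the ligand-binding proteins follow, of which Fst was higher and Fstl3 lower in SkM in the 4 mice. Fst (chr13:114452262-114458730, minus strand, 6 exons) encodes follistatin, which binds activins, myostatin and GDF11. It had 0.181 normalized CPM in WT LV replicate 1 and 0.476, 0.518 and 0.901 in E0del/+ LVs 1 to 3, from 3, 9, 8 and 12 counts. In SkM it had 2.52 and 1.11 in WT replicates 1 and 2 and 1.44, 1.54 and 2.03 in E0del/+ replicates 1 to 3. These ranges did not overlap. SkM was higher by 1.94 (log2, SE 0.49, adjusted p = 0.0100). WT LV replicate 2, with 3.50 normalized CPM and 45 counts, lay above all 5 SkM libraries, so that with all 5 mice in the fit the difference was 1.22 with an adjusted p of 0.161. Fstl3 (chr10:79777274-79782630, plus strand, 5 exons), a follistatin-like protein that also binds these ligands, went the other way. It was at between 2.24 and 3.33 normalized CPM in the 4 LVs, 1.63 in WT LV replicate 2, and between 0.721 and 1.28 in SkM. LV lay above SkM without overlap, and the difference was -1.54 (log2, SE 0.35, adjusted p = 0.00652). Per kb, Fstl3 stood at 4.19 to 14.8 times Fst in the 4 LVs and at 0.347 to 1.11 times in SkM. Of the exon length of Fstl3, 1157 bp of 1953 are shared with Prss57 on the opposite strand. Whether strand was kept or used in counting is not stated in the sources used here, so reads there may belong to either gene, and Prss57 itself was listed with at most 3 counts in any library.

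Fbxo32 (chr15:58175879-58214892, minus strand, 9 exons), the gene of atrogin-1, had the highest level per kb of the 10 genes in LV. It was at 223 normalized CPM in WT LV replicate 1 and at 223, 164 and 260 in E0del/+ LVs 1 to 3, with 354 in WT LV replicate 2. In SkM it was at 372 and 900 in WT replicates 1 and 2 and at 454, 449 and 944 in E0del/+ replicates 1 to 3. SkM lay above all LVs, and within SkM the libraries fell into a lower set of 3 and a higher set of 2, each with both genotypes. SkM exceeded LV by 1.31 (log2, SE 0.21, adjusted p = 0.00131), and in single mice by between 0.74 and 1.86. WT replicate 2 lay inside this range, at 1.34.

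Of the FoxO factors, Foxo3 passed the threshold between tissues and Foxo1 did not, and the difference between the 2 genes was not tested. Foxo1 (chr3:52268337-52350109, plus strand, 3 exons) was between 43.5 and 50.2 normalized CPM in the 4 LVs, 43.5 in WT LV replicate 2 and between 33.6 and 50.4 in SkM, with overlap. Its difference between tissues was 0.035 (log2, SE 0.12, adjusted p = 0.811). Foxo3 (chr10:42185786-42276742, minus strand, 4 exons) was at 40.0 normalized CPM in WT LV replicate 1 and at 36.3, 15.5 and 49.7 in E0del/+ LVs 1 to 3, with 36.5 in WT LV replicate 2. In SkM it was at 16.7 and 6.35 in WT replicates 1 and 2 and at 17.2, 17.8 and 13.3 in E0del/+ replicates 1 to 3. The tissues were apart except for E0del/+ LV replicate 2, which lay within the SkM range. SkM was lower by -0.98 (log2, SE 0.30, adjusted p = 0.0246), with a lower value in SkM in 3 of 4 mice and 0.19 higher in E0del/+ replicate 2. Without E0del/+ replicate 2 it was -1.38 (SE 0.17, adjusted p = 0.00128). The adjusted p rose to 0.0590 without E0del/+ replicate 1 (log2 difference -0.96), 0.0892 without WT replicate 1 (-0.88) and 0.0754 without E0del/+ replicate 3 (-0.70). Per kb, Foxo1 stood at 0.489 to 1.68 times Foxo3 in the 4 LVs and at 1.14 to 2.76 times in SkM.

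Igf1 (chr10:87859056-87937047, plus strand, 6 exons), which encodes the growth factor, varied less between LV than between SkM libraries. In LV it was at 13.8 and 13.5 normalized CPM in WT replicates 1 and 2 and at 11.8, 16.6 and 11.9 in E0del/+ replicates 1 to 3. In SkM it was at 27.6 and 22.9 in WT replicates 1 and 2 and at 12.3, 17.8 and 33.3 in E0del/+ replicates 1 to 3. The lowest SkM library lay among the LVs and the other SkM libraries above them. SkM exceeded LV by 0.71 (log2, SE 0.25, adjusted p = 0.0412), but the single mice ranged from 0.058 to 1.49, and the adjusted p was 0.139 without WT replicate 1 (log2 difference 0.61) and 0.117 without E0del/+ replicate 3 (0.43). These are the mice whose SkM held the most adipocyte marker counts: the 4 genes summed to 1254 normalized CPM in WT SkM replicate 1 and 1429 in E0del/+ SkM replicate 3, led by Cfd, against 327, 185 and 11.9 in E0del/+ SkM replicates 1 and 2 and WT SkM replicate 2. The sum of the 4 fibroblast genes, led by Col3a1, was also highest in these SkM libraries, at 344 and 383 against 124, 243 and 95.5. Col1a1, Col3a1 and Dpt each followed this order, and Pdgfra did not. Pdgfra was at 15.3 in WT SkM replicate 1 and 8.91 in E0del/+ SkM replicate 3. It was at 9.30 and 14.5 in E0del/+ SkM replicates 1 and 2 and 4.76 in WT SkM replicate 2. The fibroblast genes summed to 363 to 748 in the 4 LVs, which overlaps SkM. E0del/+ replicate 3 had 363 in LV and 383 in SkM, while in the other mice the sum was higher in LV. The macrophage genes, 3 of 4 in the files and led by Csf1r in most libraries, summed to between 4.76 and 23.4 normalized CPM in SkM and between 48.2 and 69.0 in LV. Among E0del/+ SkM replicates 1 and 2 and WT SkM replicate 2, Igf1 ran against the adipocyte sums, at 12.3, 17.8 and 22.9 normalized CPM. The part of adipocytes, fibroblasts and macrophages in the level of Igf1 was not tested. Igf1r (chr7:67952257-68233667, plus strand, 21 exons), the receptor gene, was between 46.8 and 56.2 normalized CPM in the 5 LVs and between 29.0 and 43.5 in SkM. LV lay above SkM in all 5 mice. The fitted difference over the 4 mice was -0.51 (log2, SE 0.12, adjusted p = 0.00637). Per kb, Igf1r was at 2.21 to 2.76 times Igf1 in the 4 LVs and at 0.649 to 1.79 times in SkM.

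**Figure D2:**
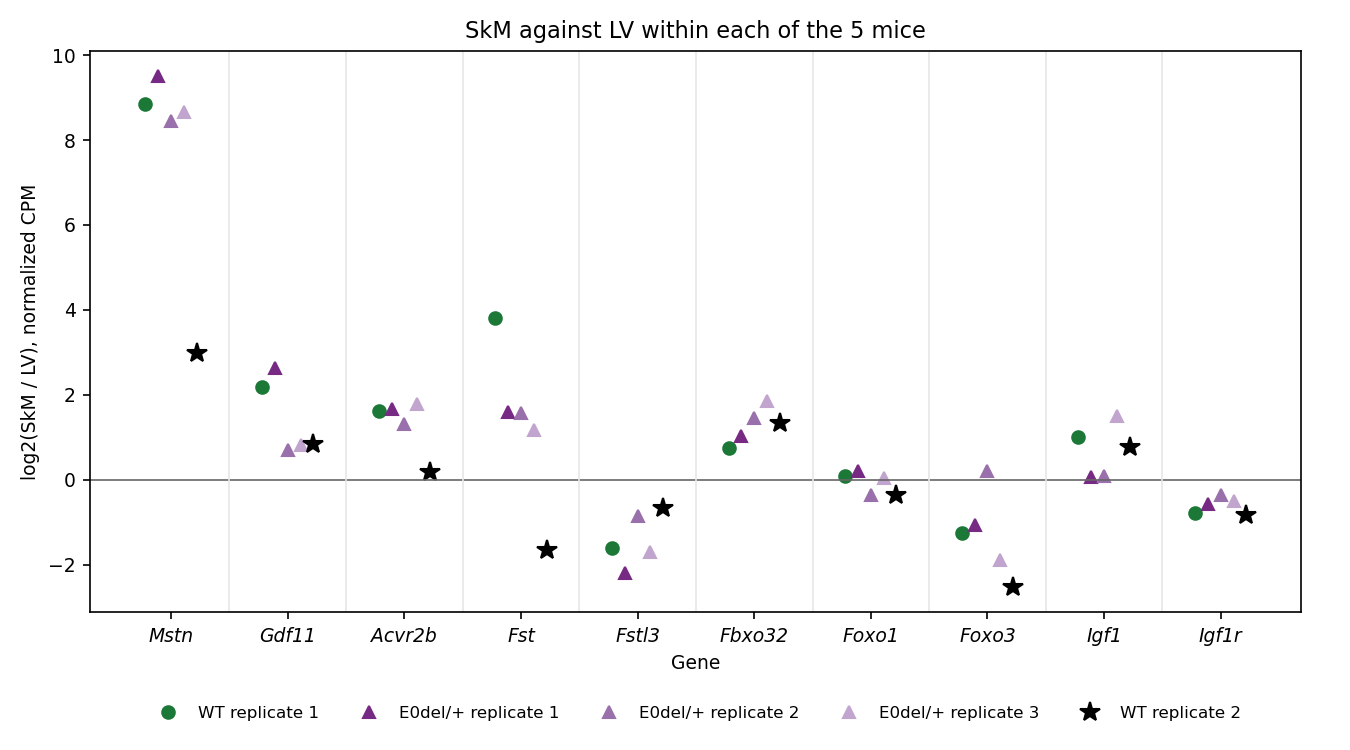
Difference of SkM from LV within each mouse, as log2 of the ratio of normalized CPM, for the 10 genes. Circles are WT replicate 1, triangles E0del/+ and stars WT replicate 2, whose LV library holds skeletal muscle counts. For Mstn the star lies at 2.98 and the other mice between 8.44 and 9.50.

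Scaling bears on these differences, since the 10 most abundant genes took 27.2% to 29.5% of counts in SkM and 12.5% to 14.5% in LV. With total counts in place of TMM, the median log2 difference of all genes moved from -0.022 to -0.67, and the share of calls that were higher in SkM from 48.7% to 18.1%. Relative to those medians the differences of the 10 genes were nearly the same, such as 0.73 by either scaling for Igf1 and 0.057 and 0.058 for Foxo1. Taken without that shift, Foxo1 was lower in SkM by -0.62 (adjusted p = 0.0120), Igf1 differed by 0.053 (adjusted p = 0.880), and Gdf11 (0.96) and Fst (1.30) no longer passed, with adjusted p of 0.116 and 0.0614.

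In order of mean level per kb, the 4 LVs without WT replicate 2 had Fbxo32 (31.4 normalized CPM per kb), Foxo3 (12.2), Foxo1 (8.41), Igf1r (4.33), Acvr2b (2.48), Igf1 (1.73), Fstl3 (1.41), Gdf11 (0.478), Fst (0.222) and Mstn (0.175). The ranges of neighbours overlapped between Foxo3 and Foxo1, Acvr2b and Igf1, Igf1 and Fstl3, Gdf11 and Fst, and Fst and Mstn. In SkM the order was Fbxo32 (89.9), Mstn (83.8), Foxo1 (7.93), Acvr2b (7.12), Foxo3 (4.94), Igf1 (2.92), Igf1r (2.85), Gdf11 (1.65), Fst (0.739) and Fstl3 (0.485). Neighbours there overlapped throughout, except that Mstn lay above Foxo1. Mstn thus moved from the last place in LV to the second in SkM, where its range of 62.4 to 110 overlapped that of Fbxo32, 53.6 to 136. As a count of genes, 7 of the 10 had no overlap between the 4 LVs and the 5 SkM libraries, against 55.3% of all 14327 genes.

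Spread between libraries of a tissue differed among the genes. Among genes with a mean of at least 10 normalized CPM, the median coefficient of variation was 12.2% over the 4 LVs (8434 genes) and 13.7% over the 5 SkM libraries (7961 genes). Foxo3 varied most in LV by this measure, with 40.7%, more than 99.4% of those genes, and Foxo1 little, with 5.86%, more than 12.4% of them. For Foxo3, E0del/+ LV replicate 2 lay below the others, as it did for Ryr2 above, for Fbxo40 (44.2 normalized CPM against 104 to 150 in the other LVs) and for Irs2 (6.73 against 12.2 to 28.5). Among the 4 LVs this library was also the lowest for Fbxo32, but the highest for Mstn, Gdf11, Acvr2b, Foxo1, Igf1 and Igf1r. In SkM, Fbxo32 had 44.0% (percentile 95.4), Igf1 36.0% (93.0), Foxo3 33.3% (91.5) and Mstn 21.9% (79.0). Counting error alone would give 1.22% for Fbxo32, 6.28% for Igf1, 8.12% for Foxo3 and 1.93% for Mstn and leaves out differences between mice. Mstn in the 4 LVs had 39.4% where counting gives 38.5%, and Fstl3 in SkM 24.6% where counting gives 29.9%. The spread between those libraries is about the size of counting error.

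The higher set of Fbxo32 values in SkM, 900 and 944 normalized CPM, came from WT replicate 2 and E0del/+ replicate 3, the mice with 6 counts of Xist in SkM. The other 3 SkM libraries, with 4180 to 5909 counts of Xist, were at 372 to 454; 1 of them is WT replicate 1, which also holds Y-linked counts. Mstn was also highest in those 2 libraries (295 and 245), and Foxo3 (6.35 and 13.3) and Acvr2b (10.5 and 10.4) were lowest. The other 6 genes, Gdf11, Fst, Fstl3, Foxo1, Igf1 and Igf1r, overlapped between the 2 and the 3 libraries. Thus 4 of the 10 genes were split without overlap, against 40.4% of all 14327 genes. The 3 slow skeletal muscle genes, led by Tnni1, summed to 34.1 and 54.0 normalized CPM in the 2 libraries and to 210, 250 and 406 in the others. Sex, fibre type and single mice were not tested as sources of these values, and with 2 mice against 3 they cannot be told apart.

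**Figure D3:**
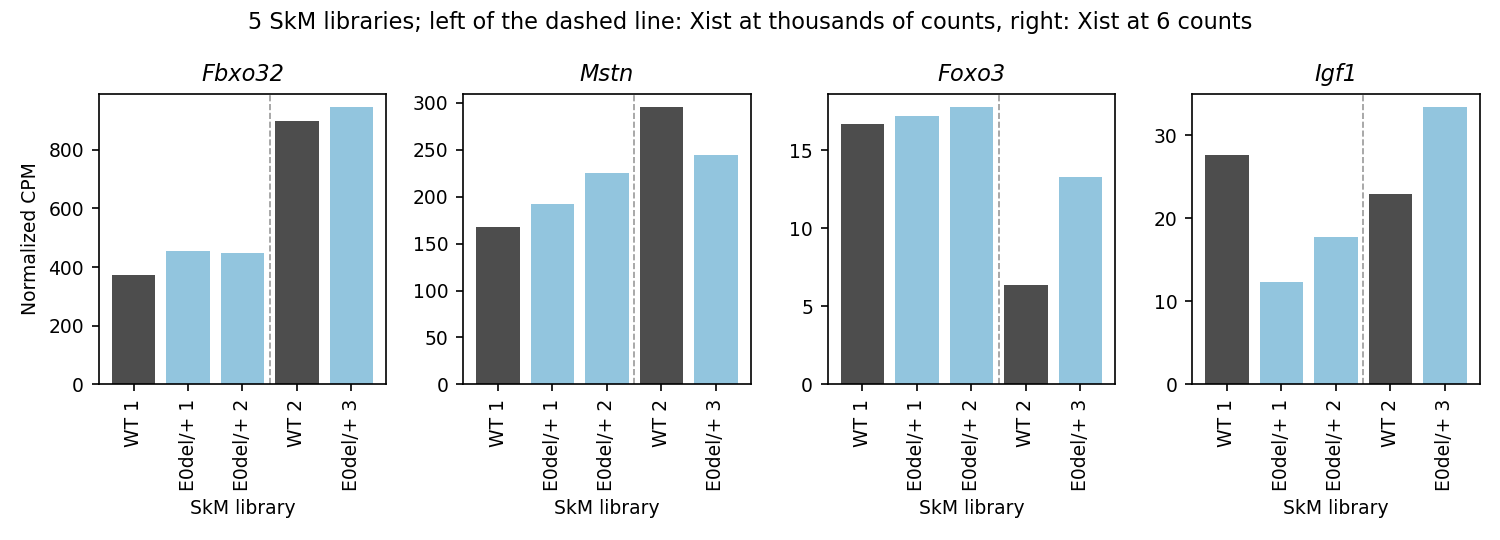
Normalized CPM of Fbxo32, Mstn, Foxo3 and Igf1 in the 5 SkM libraries, as bars from 0 (dark: WT, light: E0del/+). Libraries to the right of the dashed line have 6 counts of Xist. Fbxo32 is at 900 and 944 there and at 372 to 454 to the left.

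E0del/+ was compared with WT in LV to ask whether the deletion goes with changes in the pathway. By edgeR, 0% of 13420 genes had an adjusted p under 0.05 and 4.2% an unadjusted p under 0.05. DESeq2 called 12 genes, but its filter on mean counts gave no adjusted p to 9 of the 10 genes here, all but Fbxo32, so its calls say nothing of those 9. In level, 7 of the 10 genes had WT LV replicate 2 outside the range of the other 4 LVs (Foxo1 only just), as did 52.7% of all 14327 genes, and this is 1 of the 2 WT libraries. For Mstn the log2 difference was -5.25 (SE 1.37, adjusted p = 0.997) with all 5 libraries and 0.43 (SE 0.98, adjusted p = 0.9998) without that library. Fst went from -1.53 (SE 0.94) to 1.72 (SE 1.07), Gdf11 from -0.78 (SE 0.63) to 0.46 (SE 0.75) and Acvr2b from -0.60 (SE 0.42) to 0.14 (SE 0.42). The signs of these 4 genes thus turned on 1 library. With only that library as WT, whose spread is then taken from the E0del/+ mice, 578 genes passed, among them Mstn at -6.24 (adjusted p = 8.54e-07) and Fst at -2.49 (adjusted p = 0.0309). The batch in the labels equals the replicate number. With it as a replicate block, 5 genes passed (0.0373% of those tested): Mstn, at -4.58 (SE 0.78, adjusted p = 0.0448), and the Y-linked genes Kdm5d, Uty, Ddx3y and Eif2s3y. Batch 2 pairs WT LV replicate 2, from a mouse with Y-linked counts, with an E0del/+ mouse that has Xist counts, and over the 10 alternatives with an adjusted p for Mstn it ran from 8.54e-07 to 0.9999, with 2 of 10 past the threshold.

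The skeletal muscle counts of WT LV replicate 2 can be set beside its Mstn. On a scale from the mean of the other LVs (0%) to a SkM library (100%), the 8 fast skeletal muscle genes stood at between 7.55% and 27.7% over the 5 SkM libraries, with a median of 16.0%. Mstn stood at between 12.5% and 22.1%, with a median of 16.4%, inside that range. Other genes stood elsewhere: Acvr2b at 48.9% to 81.3%, Fstl3 at 55.4% to 76.3%, Gdf11 at 45.5% to 172%, Fst at 149% to 503%, and Fbxo32 at 18.8% to 88.6%, which overlaps the fast genes only at its low end. For Foxo1, whose levels overlap between tissues, SkM libraries lie on both sides of the LV mean, so its values form no single range. They were 24.9% against WT SkM replicate 2, 42.4% against E0del/+ SkM replicate 2 and -275% to -88.2% against the others. Foxo3, Igf1 and Igf1r in WT LV replicate 2 lay within the range of the other LVs.

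**Figure D4:**
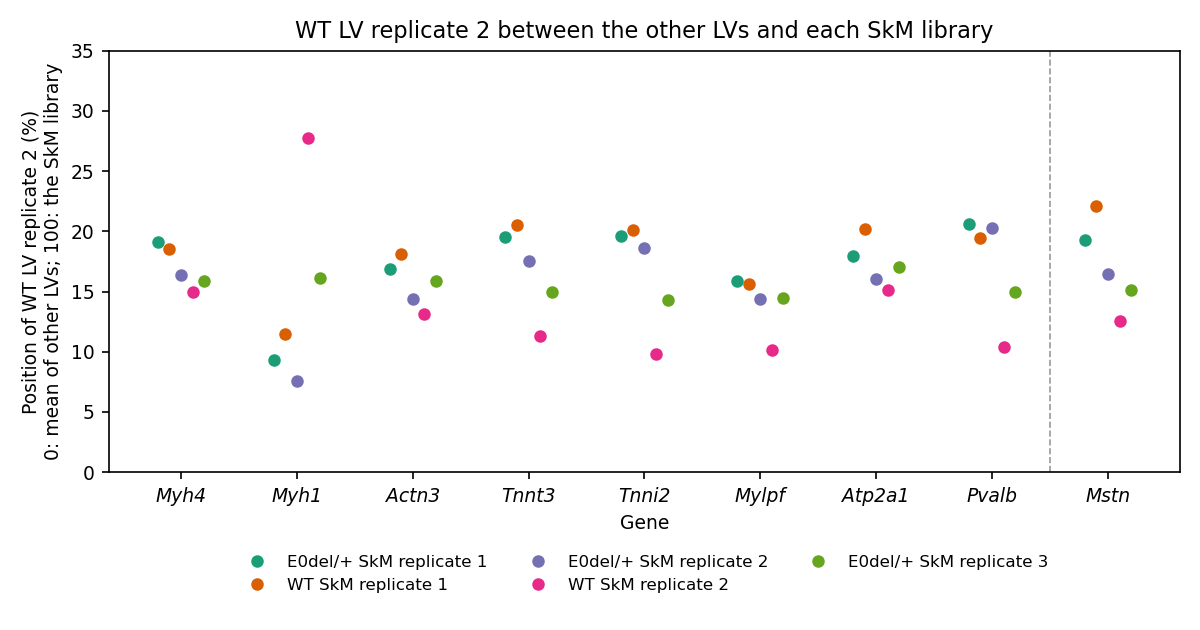
Position of WT LV replicate 2 between the mean of the other LVs (0%) and each of the 5 SkM libraries (100%), for 8 fast skeletal muscle genes and, right of the dashed line, Mstn. The fast genes lie between 7.55% and 27.7% and Mstn between 12.5% and 22.1%.

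Without WT LV replicate 2, the level in WT LV replicate 1 lay within the E0del/+ range for 8 of the 10 genes, against 64.1% of all genes, and the exceptions were Fst and Fstl3, where it was lower. Fstl3 was at 2.24 and 1.63 normalized CPM in WT LVs and 3.33, 2.33 and 3.15 in E0del/+ LVs. It was the only 1 of the 10 with no overlap of genotypes in LV, narrowly, where 16.4% of all genes had none, and the difference was 0.58 (log2, SE 0.34, adjusted p = 0.997), or 0.39 (SE 0.43) without WT replicate 2. Fbxo32 differed by -0.43 (SE 0.27) with all LVs, and by -0.059 without WT replicate 2. Foxo3 differed by -0.19 (SE 0.39), by -0.25 (SE 0.44) without WT replicate 2 and by 0.15 (SE 0.18) without E0del/+ replicate 2. Foxo1 (0.047, SE 0.15), Igf1 (-0.029, SE 0.21) and Igf1r (-0.062, SE 0.16) had the smallest differences, each below its SE. Without WT replicate 2 they were 0.00057 (SE 0.22), -0.041 (SE 0.27) and -0.097 (SE 0.22).

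In SkM, edgeR gave 0% of 13154 genes with an adjusted p under 0.05 for genotype, 0.867% with an unadjusted p under 0.05, and 0 genes by DESeq2. None of the 10 genes passed. None of them passed either with the batch as a replicate block, where 1 gene did. Mstn averaged 231 normalized CPM in the WT mice (SD 90.4) and 221 in the E0del/+ mice (SD 26.7). Its difference was -0.039 (log2, SE 0.25), -0.37 without WT replicate 1 and 0.40 without WT replicate 2. Fbxo32 differed by -0.014 (SE 0.49), with -0.50 without WT replicate 1 and 0.73 without WT replicate 2. Igf1r was at 31.4 and 29.0 normalized CPM in WT and 33.8, 43.5 and 33.2 in E0del/+ SkM. All E0del/+ libraries lay above both WT libraries, as for 12% of all genes when both directions are counted, and the difference was 0.31 (log2, SE 0.17, adjusted p = 0.9998). Foxo3 differed by 0.50 (SE 0.43) and by -0.041 without WT replicate 2, its lowest SkM library, and by 1.39 without WT replicate 1. The remaining genes had differences between -0.60 (Gdf11, SE 0.48) and 0.20 (Acvr2b, SE 0.23).

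**Figure D5:**
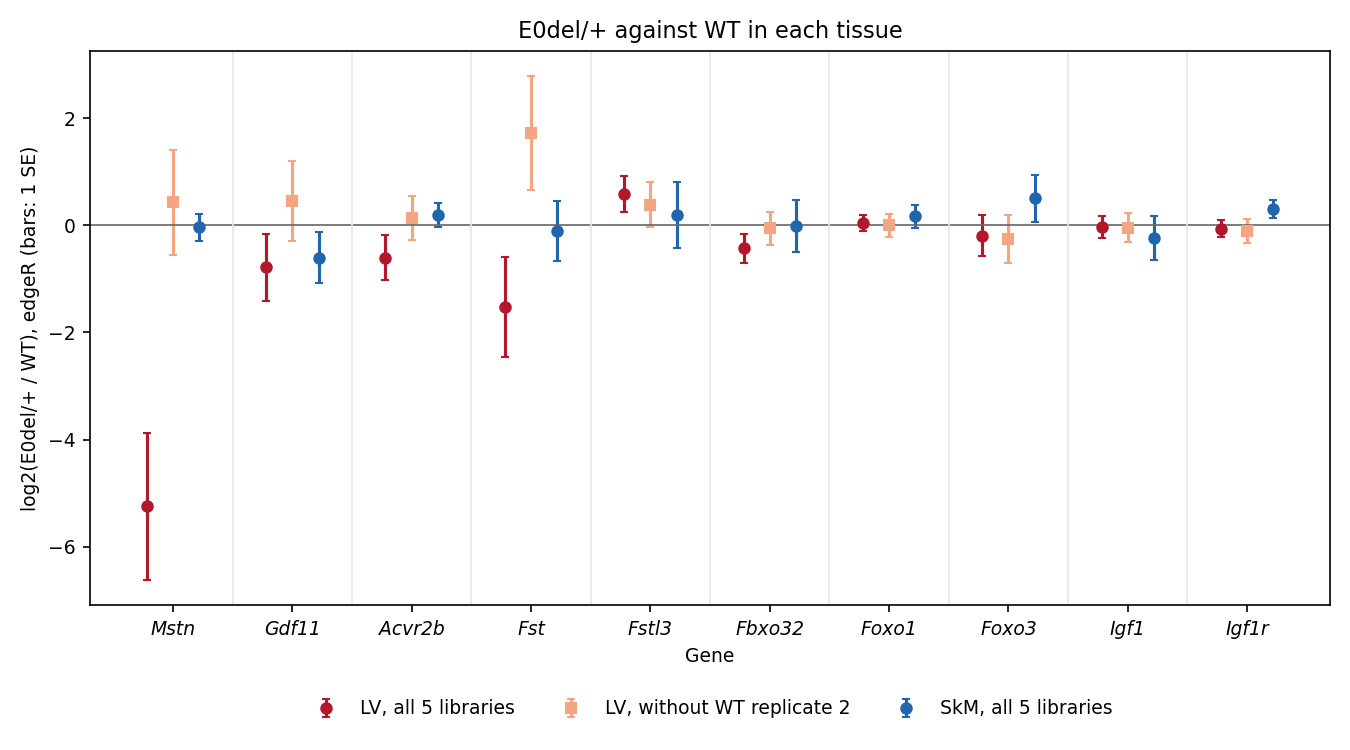
Log2 difference of E0del/+ from WT for the 10 genes with bars of 1 SE, in LV with all 5 libraries (red circles), in LV without WT replicate 2 (light squares) and in SkM (blue circles). For Mstn in LV the value is -5.25 with all libraries and 0.43 without WT replicate 2.

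Whether the genotype difference itself differed between SkM and LV was tested over all 10 libraries, and edgeR called 0% of 14327 genes at an adjusted p under 0.05, with 3.33% at an unadjusted p under 0.05. DESeq2 called 17 genes, and again gave an adjusted p to only Fbxo32 of the 10 (0.940). For Mstn the interaction was 5.16 (log2, SE 1.69, adjusted p = 0.999996), -0.49 without WT LV replicate 2 and 6.16 without WT LV replicate 1. Each fit without a WT LV library leaves 1 library in that group, so its spread is taken from the other groups. The other 9 genes had interactions between -0.44 (Fstl3, SE 0.60) and 1.40 (Fst, SE 1.29).

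Other genes of the pathway were described from 3 lists. Of 28 genes of TGF-β and activin signalling, all tested between tissues, 10 were higher and 12 lower in SkM, against 29.8% and 31.5% of all genes, with a median log2 difference of -0.061 against -0.022 for all genes. Smad3, a transducer of myostatin signals, was higher by 2.98 (SE 0.18, adjusted p = 9.16e-06), at 214 to 348 normalized CPM in SkM and 31.2 to 38.4 in the 4 LVs. Acvr1b, a type I receptor that pairs with ACVR2B, was higher by 1.82 (SE 0.13, adjusted p = 2.14e-05). Acvr1c, another type I receptor, had the largest rise of the list, at 4.57 (SE 0.88, adjusted p = 0.00299), with levels that ran from 0 to 12.1 normalized CPM within SkM and from 0 to 0.388 in the 4 LVs. Its SkM levels of 0, 1.02, 2.38, 9.11 and 12.1 followed the order of the adipocyte sums given above, and WT SkM replicate 2, the lowest in both, had 0 counts. The largest falls were those of Tll2, a protease of the family that activates latent myostatin (13 to 19 counts in the 4 LVs and at most 1 in SkM, log2 difference -5.06, SE 0.84, adjusted p = 0.00143), Inhba, which encodes a subunit of activin A (-2.16, SE 0.53, adjusted p = 0.00920), and Tgfb1 (-1.97, SE 0.21, adjusted p = 0.000150). Tll2 and Inhba, with at most 5 counts in any SkM library, passed the low-count filter through LV only, and Acvr1c through SkM only, so their places in this order rest in part on the filter. Fitted values of genes with libraries at 0 depend on the prior count.

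Of 32 genes of IGF and AKT signalling, 31 were tested between tissues, and 13 were higher and 9 lower in SkM, against 29.8% and 31.5% of all genes, with a median of -0.067 against -0.022 for all genes. Igfbp5, an IGF-binding protein, had the largest rise, 2.52 (SE 0.19, adjusted p = 2.91e-05), from 136 to 156 normalized CPM in the 4 LVs to between 549 and 1194 in SkM. The adaptors Irs1 and Irs2, which link the IGF1 and insulin receptors to PI3K, were higher by 1.98 (SE 0.16, adjusted p = 3.67e-05) and 1.30 (SE 0.27, adjusted p = 0.00428). Grb14, an adaptor that inhibits insulin receptor signalling, fell most, by 2.86 (SE 0.13, adjusted p = 2.67e-06), with 116 to 172 normalized CPM in the 4 LVs and 18.3 to 21.8 in SkM. Igfbp7 and Igfbp3 were lower, at -1.56 (SE 0.13, adjusted p = 3.72e-05) and -1.52 (SE 0.23, adjusted p = 0.000821). The 3 endothelial genes, led by Cdh5, which lie on the same side, summed to between 633 and 1039 normalized CPM in LV and between 110 and 209 in SkM, and their part was not tested.

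Of 32 further genes of ubiquitin ligases, FoxO targets, autophagy and the proteasome, 16 were higher and 5 lower in SkM, against 29.8% and 31.5% of all genes, with a median of 0.42 against -0.022 for all genes. The remaining FoxO genes stood at the top. Foxo4 was higher by 1.99 (SE 0.16, adjusted p = 3.50e-05), at 191 to 254 normalized CPM in SkM and 48.0 to 61.7 in the 4 LVs, and Foxo6 by 1.80 (SE 0.17, adjusted p = 8.36e-05), at 8.09 to 11.7 and 2.78 to 3.75. Fbxo40, a muscle F-box protein that targets IRS1, was higher by 1.59 (SE 0.31, adjusted p = 0.00335). The largest falls were those of the stress gene Sesn1 (-1.27, SE 0.34, adjusted p = 0.0134) and the autophagy genes Gabarapl1 (-1.11, SE 0.12, adjusted p = 0.000170) and Map1lc3a (-1.06, SE 0.13, adjusted p = 0.000347). Among the genes of the 3 lists, edgeR called 0 for genotype in LV, in SkM or for the interaction. At an unadjusted p under 0.05 there were 3 in LV, 1 in SkM and 1 for the interaction, where all genes had 4.2%, 0.867% and 3.33%.

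As a description of likeness, Pearson's r of log2 normalized CPM (with 0.5 added) was taken between each of 3 genes and the 8532 others with a mean of at least 10 normalized CPM, over the 9 libraries without WT LV replicate 2. For Mstn the highest were Atp6v0e2, Mylpf and Myl1, each with r of 0.999. The 9 libraries fall into 2 tissues and 23.0% of genes had r over 0.9 with Mstn, so these values mostly restate the split between tissues. For Fbxo32 the highest were Ap2a1 (0.988), Phc1 (0.988) and Metap2 (0.986), and 12.0% of genes had r over 0.9. For Igf1 they were 4931406C07Rik (0.918), Exoc1 (0.914) and Tmem183a (0.903), and these 3 genes were all that had r over 0.9.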

How the data were processed

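The deposited tables of the authors hold raw counts and RPKM; RPKM is the count scaled by exon length and by the total of the library. The submitters' processing notes name STAR, DESeq2 and mm10; the counting software is not given in the sources used here. Only the counts were tested, and the RPKM values served to check them. Fits used edgeR 4.0.16 (quasi-likelihood, filterByExpr, TMM, R 4.3.3) with Benjamini-Hochberg adjustment over all genes tested and a threshold of 0.05. SkM was compared with LV in 8 libraries with the mouse as a block, without WT replicate 2. Genotypes were compared in the 5 libraries of a tissue, and the interaction was taken over all 10. Alternatives were DESeq2 1.42.0 and its size factors, total counts, no filter, all 5 mice, 1 fit over all 10 libraries, Xist as a block, the batch or mouse as a block or no block, and each library or mouse left out. The pairing of the 2 tissues of a mouse rests on the labels. Correlations of deviations from group means between these tissues were -0.101 to 0.0918 and do not bear the pairing out. With 2 WT mice their deviations mirror each other, so both WT mice have the same value, 0.0899. The labels also give WT and E0del/+ mice shared batches, with correlations of 0.0310 and -0.118 in LV and 0.518 and 0.310 in SkM. The scripts were tested on simulated data. All 10 members were described. From the lists of TGF-β and activin signalling, IGF and AKT signalling, and ligases, FoxO targets, autophagy and the proteasome, the 3 genes past the threshold with the largest rise and fall between tissues were named, and any past it for genotype. The 3 genes most like Mstn, Igf1 and Fbxo32 were also named. The members and lists were chosen with earlier results of these data known. Python 3.11.15 was used for tables and figures.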

Additional observations from a re-analysis of the deposited data

Results flagged for a closer look

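The level of each of the 10 genes in each tissue was searched for a library that lies far from the other 4, which makes 20 groups of 5 libraries, and chance alone flags about 1 in 20 groups. There were 2 found, both in WT LV replicate 2. For Mstn in LV the gap between this library and its nearest neighbour took 0.99 of the whole range of the 5 LVs. For Fst in LV it took 0.783 of the range. The library also holds counts of fast skeletal muscle genes, and their part in these values was not tested.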

How the results depend on the processing

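Of the differences between tissues, only that of Foxo1 changed sign: -0.62 with total counts, which shift the median of all genes, -0.040 with all 5 mice, and -0.034 to 0.14 as mice were left out. Without the replicate block of mouse, 8628 genes passed in place of 8202. In LV, the genotype comparison gave 12 genes with DESeq2, 5 with the batch as a replicate block and 0 to 578 as libraries were left out. There Igf1 was 0.052 with total counts and 0.037 with the block, and Igf1r 0.012 and 0.00033. Leaving out LVs gave -6.24 to 0.43 for Mstn, -1.48 to 0.46 for Gdf11, -1.10 to 0.14 for Acvr2b, -2.49 to 1.72 for Fst, -0.019 to 0.10 for Foxo1, -0.56 to 0.15 for Foxo3, -0.22 to 0.061 for Igf1 and -0.15 to 0.0046 for Igf1r. Without E0del/+ replicate 2 or 3, 9 of the 10 genes passed the filter. In SkM, 1 gene passed with the batch as a replicate block. Mstn was 0.081 with Xist as a block, and Fbxo32 0.21, or 0.024 with total counts. Leaving out SkM libraries gave -0.37 to 0.40 for Mstn, -0.59 to 0.63 for Fst, -0.038 to 0.44 for Fstl3, -0.50 to 0.73 for Fbxo32, -0.094 to 0.49 for Foxo1, -0.041 to 1.39 for Foxo3 and -0.76 to 0.031 for Igf1. The interaction gave 17 genes with DESeq2 and 0 to 154 as libraries were left out, and Gdf11 was -0.099 with the mouse as a replicate block. Leaving out libraries gave -0.49 to 6.16 for Mstn, -1.10 to 0.82 for Gdf11, -1.86 to 2.34 for Fst, -0.12 to 1.24 for Fbxo32, -0.066 to 0.40 for Foxo1 and -0.67 to 0.098 for Igf1. Apart from Mstn in LV with the batch as a block, the blocks changed no call among the 10 genes. On total counts, levels were 1.16 to 1.40 times those given in LV and 0.721 to 0.885 times in SkM. The cause of these changes was not tested. With 2 WT mice, of which 1 gave an LV library with skeletal muscle counts, genotype differences of moderate size cannot be told from 0. Protein, phosphorylation and cell types were not measured, sex was not in the labels, and the few counts of Mstn, Fst and Gdf11 in LV and of Fstl3 and Fst in SkM limit what can be said of them.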

Other observations

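The SkM libraries differed in markers of other cells. The 3 satellite cell genes summed to 76.5 normalized CPM in WT SkM replicate 2 and to between 35.6 and 48.2 in the other SkM libraries. This difference was that of Myod1, at 72.8 against 31.2 to 44.0. Pax7 went the other way and was lowest in WT SkM replicate 2, at 2.22 against 2.73 to 3.97. Myf5, at 1.43, lay within the range of the other SkM libraries, 1.22 to 1.96. The 4 atrium genes summed to between 175 and 423 normalized CPM in LV, nearly all of it Nppa, at 170 to 415. In LV, Myl7 was at 0.484 to 2.22, Myl4 at 1.51 to 5.23 and Sln at 0.150 to 1.17. Sln was higher in every SkM library, at 2.54 to 7.17, and Myl4 overlapped between the tissues, with 3.01 to 5.87 in SkM. Of 4 haemoglobin genes, 2 were in the files, Hba-a1 and Hba-a2, and both had 0 counts in all 10 libraries. Since the counting software is not given, these 0 counts cannot be read as an absence of blood.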
